A study of Mus musculus with 2 samples.

Results

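Methylated regions in the centromeric autosome ends were examined in liver DNA of a Pemt-/- mouse and a Pemt+/+ mouse. A region belonged to these ends when it lay on chromosomes 1 to 19 and ended at or below 6 Mb of its chromosome. The longer list of Pemt-/- held 2110 such regions among 95650 autosomal regions, or 2.21% (95% Wilson interval, 2.11 to 2.30%), and 97063 regions in all. The longer list of Pemt+/+ held 2837 among 129116 autosomal regions, or 2.20% (2.12 to 2.28%), and 131279 in all.

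The study compared mice lacking Pemt with their wild-type counterparts. Pemt encodes phosphatidylethanolamine N-methyltransferase, which makes phosphatidylcholine with S-adenosylmethionine as methyl donor. Per the labels, both animals received a high fat-high sucrose (HFHS) diet from 5 to 25 weeks of age, when the livers were taken, whereas the study's methods place the enrichment livers in the first weeks of HFHS feeding. The methods describe male mice and several animals per genotype, the labels name 1 animal per genotype, and pooling was not stated. The labels also state bisulphite conversion before capture, which the methods do not mention. The 2 lists were therefore compared as 2 libraries and not as 2 genotypes, and no p-value was computed. Methylated regions give no expression of Pemt or of hepatocyte markers, so neither genotype nor tissue was checked here.

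Mouse autosomes are acrocentric: the centromere lies at the start of the chromosome, and its satellite repeats and the neighbouring pericentromeric repeats are densely methylated in somatic tissues. Most of these satellite arrays are missing from the assembled sequence, in which duplicated segments give way to ordinary gene-bearing sequence. No sequence of a member region was read here, so whether any member lies in satellite copies was not tested. Capture with a methyl-CpG-binding protein collects methylated fragments, and the tags of a region count the sequenced fragments assigned to it. In each mouse 1 autosomal region started below 3 Mb, so the ends covered the 3 Mb between 3 and 6 Mb of 19 autosomes, 57 Mb in total. Positions are those of the mouse build mm9, which the submitters' processing notes name.

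Members that overlapped the 5′ end of a transcript were few. There were 4 in Pemt-/-, or 0.190% of the members against 0.233% of the other autosomal regions. There were 7 in Pemt+/+, or 0.247% against 0.255%. The genes were Sfi1, Hormad2, Ldhal6b and Peg10 in both mice, with Calml3, Nox3 and Gstp2 in Pemt+/+. The RefSeq sequences of 250 bases upstream of the transcript start are shown for Gstp2, Hormad2, Ldhal6b and Nox3, since a methylated region reached the 5′ end of each in at least 1 mouse. They are given 5′ to 3′ along the gene, all from the minus strand of GRCm38.p6, a later build than that of the lists. Gstp2 lies at chr19:4042222-4042471, Hormad2 at chr11:4441083-4441332, Ldhal6b at chr17:5418768-5419017 and Nox3 at chr17:3696262-3696511. Capitals mark CG, the dinucleotide whose cytosine can carry the methyl group, which reads CG on both strands and cannot overlap another CG.
Gstp2: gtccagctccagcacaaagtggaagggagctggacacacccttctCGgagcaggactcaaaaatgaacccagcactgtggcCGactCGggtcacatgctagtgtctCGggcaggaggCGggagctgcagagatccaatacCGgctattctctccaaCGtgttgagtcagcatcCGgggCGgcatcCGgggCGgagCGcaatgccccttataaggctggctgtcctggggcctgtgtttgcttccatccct
Hormad2: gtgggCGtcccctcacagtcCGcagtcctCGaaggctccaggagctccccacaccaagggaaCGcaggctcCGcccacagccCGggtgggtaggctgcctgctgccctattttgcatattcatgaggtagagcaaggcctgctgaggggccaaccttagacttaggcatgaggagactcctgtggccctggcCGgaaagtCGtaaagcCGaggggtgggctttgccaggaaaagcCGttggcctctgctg
Ldhal6b: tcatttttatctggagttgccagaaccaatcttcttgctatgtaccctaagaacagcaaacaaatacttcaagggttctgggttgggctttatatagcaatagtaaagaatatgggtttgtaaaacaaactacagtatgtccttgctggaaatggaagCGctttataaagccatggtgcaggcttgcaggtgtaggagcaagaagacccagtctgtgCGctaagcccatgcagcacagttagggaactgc
Nox3: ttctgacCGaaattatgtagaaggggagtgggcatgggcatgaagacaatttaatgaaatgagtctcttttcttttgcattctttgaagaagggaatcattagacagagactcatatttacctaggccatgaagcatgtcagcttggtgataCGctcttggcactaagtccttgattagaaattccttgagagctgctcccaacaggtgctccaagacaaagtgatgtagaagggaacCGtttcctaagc

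Gstp2 held 12 CG and Hormad2 10, above the median of 6 over 32851 RefSeq promoter windows of this length, of which 92.1% held any CG. At least as many were held by 33.5% and 37.8% of the windows, respectively. Nox3 held 3 and Ldhal6b 2, with at least as many in 71.0% and 81.2%. The tags given next are those of the listed regions, which are not these windows, so tags and CG numbers were not compared. Ldhal6b, a testis lactate dehydrogenase-like gene, had 121 tags in Pemt+/+ at chr17:5417738-5418859, and 60 in Pemt-/- at chr17:5417852-5418873, or 81 over the 2 Pemt-/- regions that overlapped it. Gstp2, a pi-class glutathione S-transferase, had 12 tags in Pemt+/+ at chr19:4041985-4042506 and no region there in the Pemt-/- list. Hormad2, a meiotic chromosome protein, had 32 tags in Pemt-/- at chr11:4340675-4341360 and 40 in Pemt+/+. Nox3, an NADPH oxidase of the inner ear, had a region of 17 tags at chr17:3696061-3696364 in Pemt+/+ and none in Pemt-/-. The Calml3 region of Pemt+/+ held 11 tags, and a region of 9 tags in Pemt-/- overlapped it without reaching the annotated 5′ end.

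The ends were neither richer nor poorer in regions by any wide margin. The density was 37.0 regions per Mb in Pemt-/- against 39.7 in the other autosomal sequence, 33.9 in the adjoining 6 to 9 Mb and 39.9 in the 3 Mb at the distal ends. In Pemt+/+ the corresponding values were 49.8, 53.6, 44.0 and 54.2 regions per Mb. The order of the 4 parts was the same in both mice.

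The autosomes differed far more among themselves. The end of chromosome 2 held most regions, 170 in Pemt-/- and 224 in Pemt+/+, or 56.7 and 74.7 per Mb. That of chromosome 14 held 4 and 9, or 1.33 and 3 per Mb. On the other chromosomes the density ran between these values, and the end was denser than the rest of its own autosome on chromosomes 2, 5, 6, 7, 11, 12 and 17 in both mice, 7 of 19. In the 3 densest ends of Pemt-/-, on chromosomes 2, 6 and 5, the shares of regions inside or overlapping a transcript were 71.2, 51.6 and 53.0%. The end of chromosome 10 had 52.4% at a lower density of 42.0 per Mb, and those of chromosomes 3 and 13 had 11.1 and 13.8%. None of the chromosome 14 members lay in a transcript. Pemt+/+ had more members on 19 of 19 autosomes, between 1.14 and 1.69 times as many on 18 of them and 2.25 times on chromosome 14.

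**Figure D1:**
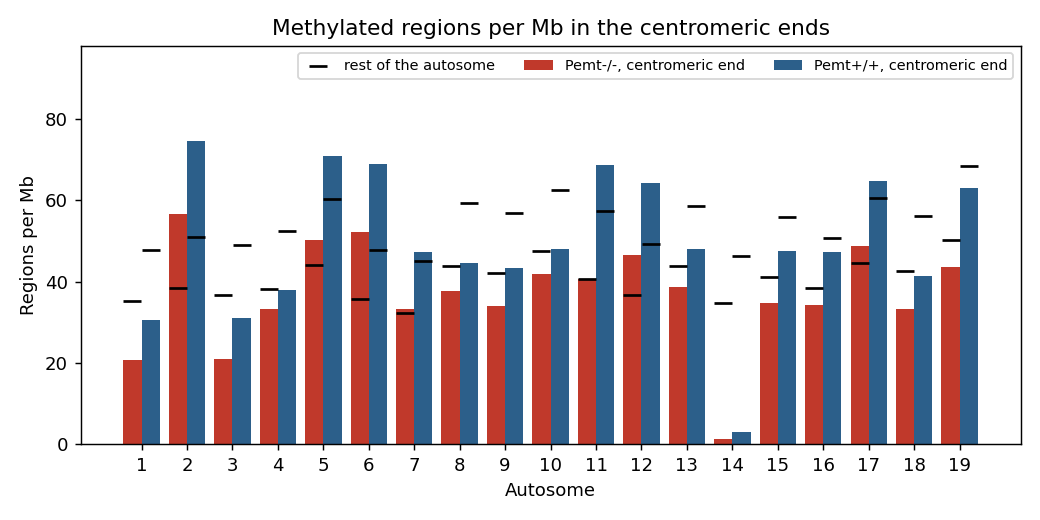
Regions per Mb (y axis) in the centromeric end of each autosome (x axis) for 1 library per genotype, with black dashes for the rest of the same autosome in the same library. The bars of chromosome 14 stand at 1.33 and 3 per Mb, and those of chromosome 2 at 56.7 and 74.7.

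On chromosome 14 the members could be listed in full. The Pemt-/- regions held 32, 8, 13 and 13 tags, and the Pemt+/+ regions between 9 and 42. The region with most tags was the same in both, chr14:4346594-4347174 with 32 tags in Pemt-/- against 42 in Pemt+/+.

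A typical member resembled any other autosomal region in its tags. The median was 13 tags per region in Pemt-/- and 17 in Pemt+/+, in the ends as in the other autosomal regions. The mean differed: 19.6 against 16.2 tags in Pemt-/-, and 24.7 against 21.6 in Pemt+/+. The higher means rested on few regions. At least 100 tags were reached by 18 members of Pemt-/-, 0.853% (0.540 to 1.34%), where 0.0554% of all autosomal regions reached it. In Pemt+/+ 30 members did, 1.06% (0.742 to 1.51%), against 0.278%. Members made up 18 of the 53 autosomal regions with that many tags in Pemt-/- and 30 of the 359 in Pemt+/+. Among the 10 autosomal regions with the most tags, 5 were members in each mouse.

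These high-tag members stood at the very start of the assembled sequence. Of the 18 in Pemt-/-, 17 ended within the first 0.25 Mb after the 3 Mb mark, a distance chosen after the values were seen, and 10 lay on chromosome 9 and 5 on chromosome 11. In Pemt+/+ 21 of 30 ended there, with 12 on chromosome 9 and 6 on chromosome 11. The first 0.25 Mb held 226 regions with 11668 tags in Pemt-/-, 28.2% of all member tags. Each of the 11 later windows of the same width held between 146 and 197 regions and between 2279 and 3189 tags. In Pemt+/+ it held 279 regions with 16428 tags, 23.5%, against 199 to 272 regions and 4014 to 5729 tags later. Even there the median region was ordinary, with 15 tags in Pemt-/- and 19 in Pemt+/+. Few regions of the first window lay in or near a transcript. In Pemt-/- 15.0% and in Pemt+/+ 15.8% of them touched one, and 81.4% and 80.6% had none within 10 kb.

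**Figure D2:**
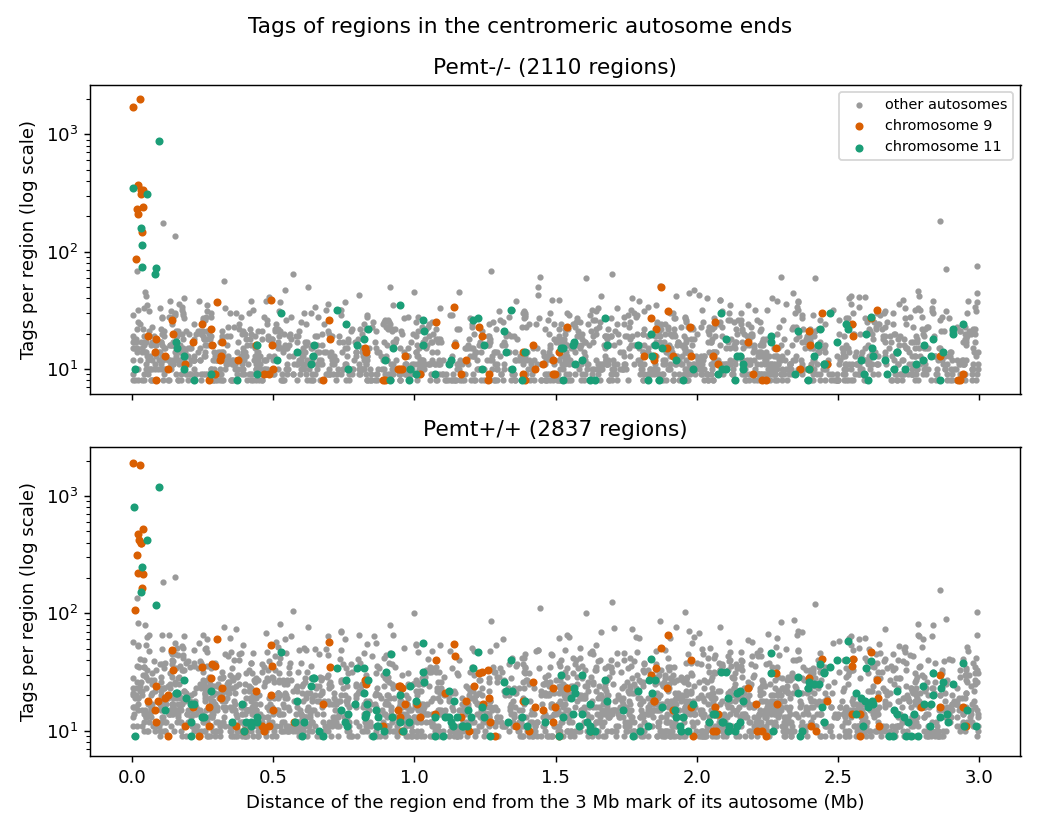
Tags per region on a log scale (y axis) against the distance of the region's end from the 3 Mb mark of its autosome in Mb (x axis), with 1 point per member and 1 panel per library. The points with the most tags, up to 1998 and 1923, stand in the first 0.25 Mb on chromosomes 9 and 11, and the remaining points form a level band with medians of 13 and 17 tags.

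On chromosome 9 a run of regions with no transcript within 10 kb opened the assembled sequence. It comprised 11 regions in Pemt-/- (chr9:2999933-3038337) with 5967 tags, from 86 to 1998 per region, and 12 in Pemt+/+ (chr9:2999937-3038361) with 6998 tags, from 108 to 1923. These were 0.521% and 0.423% of the member regions but 14.42% and 10.001% of the member tags. The regions covered 18.8 and 18.5 kb in the 2 mice, and every one overlapped a region of the other mouse. The longest, chr9:3021961-3028125, held 1998 tags in Pemt-/-, where Pemt+/+ had 2 regions of 420 and 1838 tags. The first, chr9:2999933-3003159, held 1704 tags in Pemt-/- and 1923 in Pemt+/+. Their many tags did not come with a high fold enrichment, the caller's ratio of observed to expected tags: it lay between 4.53 and 8.89 for the Pemt-/- regions and between 4.90 and 7.70 for those of Pemt+/+, below the lower quartiles of 14.3 and 13.5 over all members.

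On chromosome 11 a second run lay in and around Sfi1, which encodes a centrin-binding protein of the spindle pole, and the pseudogenes Pisd-ps1 and Pisd-ps3. It held 9 regions in Pemt-/- (chr11:3001011-3094634) with 2032 tags and 7 in Pemt+/+ (chr11:3000021-3095976) with 2950 tags. The region over the 5′ end of Sfi1, chr11:3092382-3094634, held 880 tags in the Pemt-/- list against 1190 in the other. Another inside the gene held 311 and 420. The region nearest the chromosome start held 347 tags in Pemt-/- over chr11:3001011-3002621 and 812 in Pemt+/+ over the longer chr11:3000021-3006033. The fold enrichment was higher than on chromosome 9, between 5.68 and 20.6 for the Pemt-/- regions and between 12.9 and 18 for those of Pemt+/+. Tags from near-identical copies can be assigned to any of them, the treatment of such reads is not given in the sources used here, and its part in these counts was not tested. Without both runs the mean was 16.0 tags over 2090 members in Pemt-/- and 21.3 over 2818 in Pemt+/+, near the means of the other autosomal regions.

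Outside chromosomes 9 and 11 there were 3 members with at least 100 tags in Pemt-/- and 12 in Pemt+/+. The region chr12:3109664-3110347 held 175 tags in Pemt-/- against 186 for Pemt+/+, and unlike the chromosome 9 run it had a fold enrichment of 48.4 and 47.6. Chr6:3150625-3151720 held 135 and 204 tags. The one such member of Pemt-/- beyond the first 0.25 Mb, chr3:5860182-5860951, held 181 tags in Pemt-/- and 157 in Pemt+/+. None of these had a listed gene within 10 kb. The other 9 of Pemt+/+ held between 100 and 135 tags and included the 5′ end regions of Peg10 and Ldhal6b and a region of 112 tags inside Frmd4a at chr2:4442750-4443668. By fold enrichment the ends were not conspicuous, with medians of 17.1 in Pemt-/- and 17.5 in Pemt+/+ against 16.9 and 16.5 elsewhere, and 2 and 1 members among the 100 autosomal regions with the highest values.

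The lists of the mice overlapped in the ends as they did elsewhere. Of the Pemt-/- members 83.0% (81.3 to 84.5%) overlapped a Pemt+/+ region, against 83.4% of the other autosomal regions. Of the Pemt+/+ members 61.6% (59.8 to 63.4%) overlapped a Pemt-/- region, against 61.7%. Members listed in Pemt-/- only numbered 359, or 17.0%, beside 16.7% of all autosomal regions, and those in Pemt+/+ only numbered 1089, or 38.4%, beside 38.3%. They were the weaker regions, with medians of 10 tags in Pemt-/- and 12 in Pemt+/+, where overlapped members had 15 and 22. With the 2 lists cut to the same number of regions the shares became 72.0% and 71.1%. Before the cut the overlapped members numbered 1751 in Pemt-/- and 1748 in Pemt+/+. Lists of equal length therefore had to give near-equal shares, and why the lists differed was not tested.

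The highest-scoring members listed in 1 mouse only were modest. In Pemt-/- they included an intragenic region of Ghr, the growth hormone receptor, at chr15:3416438-3416767 with 18 tags and a fold enrichment of 36.7. The other two, chr8:3833012-3833466 and chr12:5276919-5277210, held 28 and 15 tags. In Pemt+/+ the leading region lay inside Lyn, a Src-family kinase, at chr4:3665766-3666080 with 29 tags and a fold enrichment of 46.3. It was followed by chr8:4006369-4006675 with 27 tags and chr15:4898523-4898794 with 22. Neither list was free of the gene otherwise: Ghr carried 9 regions with 123 tags in Pemt-/- and 7 with 138 in Pemt+/+, and Lyn 1 with 19 and 2 with 41.

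Regions that overlapped 1 to 1 gave 1713 member pairs among 78303 autosomal pairs. Dividing the Pemt-/- by the Pemt+/+ tags of each pair gave a median ratio of 0.682 in the ends (quartiles 0.548 and 0.846) and 0.682 elsewhere (0.545 and 0.850). Totals before listing are not given in the lists. Library size and a difference in methylation across the whole genome therefore cannot be told apart in this ratio. It served here only as the common scale of the 2 libraries. The ratio exceeded 1.5 times the autosomal median in 188 pairs, 10.98%, beside 10.4% of all autosomal pairs, and fell below it by the same factor in 182, 10.6%, beside 10.8%. Both shares were close to the background. By autosome the median ratio of the ends ran from 0.636 on chromosome 11 to 0.733 on chromosomes 2 and 7, leaving out chromosome 14 with its 2 pairs, and that of the remaining sequence from 0.667 to 0.692. These ends held from 56 pairs on chromosome 1 to 136 on chromosome 6, against 76590 in all the remaining sequence. With such unequal numbers the widths of the 2 ranges were not compared.

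The summed tags leaned slightly towards Pemt-/- in the ends. Pemt-/- contributed 34125 tags to the pairs and Pemt+/+ 50335, so that 40.4% (40.1 to 40.7%) came from Pemt-/-, against 39.8% (39.8 to 39.9%) elsewhere. Without chromosome 9 the share was 39.9%, and without the first 0.25 Mb 39.9%. In the chromosome 9 run 46.0% (45.2 to 46.9%) of the tags came from Pemt-/-, and in the chromosome 11 run 40.8% (39.4 to 42.2%). Among pairs with at least 100 tags in both mice, the share was 43.9% in the ends (14 pairs) and 46.5% elsewhere (30 pairs). A share near that of the chromosome 9 run was thus also seen in high-tag pairs outside the ends. The intervals cover counting error only, and the variation between mice is unknown.

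**Figure D3:**
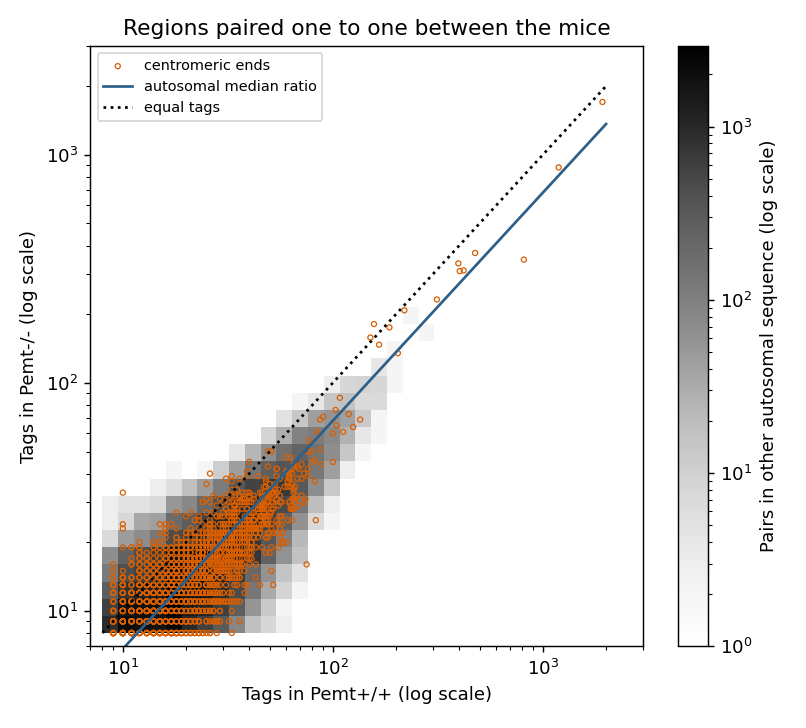
Tags of paired regions in Pemt-/- (y axis) and Pemt+/+ (x axis), both on log scales, with orange circles for the 1713 member pairs, grey cells for the number of other autosomal pairs, a blue line at the median ratio of 0.682 and a dotted line at equal tags. The circles follow the grey cells at low tags, and those with the most tags, from chromosomes 9 and 11, extend beyond nearly all of them.

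The lowest ratio among the member pairs was found at an imprinted locus on chromosome 6. Peg10, a paternally expressed gene derived from a retrotransposon, and Sgce, which encodes epsilon-sarcoglycan, share a promoter region methylated on the maternal copy. The pair with the lowest ratio lay inside Peg10 and upstream of Sgce, and not over the 5′ end of Peg10. It held 16 tags in Pemt-/- at chr6:4705667-4706104 and 75 in Pemt+/+ at the longer chr6:4705065-4706108, a ratio of 0.213. The region over the 5′ end of Peg10 held 64 tags in Pemt-/- at chr6:4697304-4698773 and 125 in Pemt+/+ at chr6:4697228-4698830, with a fold enrichment of 8.77 and 13.99. The ratio of these 2 counts did not fall below the autosomal median by the factor of 1.5 used above. A region of 11 tags inside the gene, chr6:4707481-4707752, was listed in Pemt-/- alone. Over all its regions, 31.0% of the Peg10 tags came from Pemt-/-, within the quartiles of 29.0 and 42.6% over 340 genes of the ends. The highest ratio, 3.30, was inside Dhtkd1, a mitochondrial enzyme of lysine breakdown, with 33 tags at chr2:5832612-5833818 in Pemt-/- and 10 at the shorter chr2:5832586-5832917 in Pemt+/+, which had a further region of 12 tags at chr2:5834368-5834795. Over the whole gene Dhtkd1 carried 83 tags in Pemt-/- and 90 in Pemt+/+. These extremes were picked for their ratios and stand at the edge of a wide distribution.

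Members inside or overlapping transcripts made up 37.7% (35.6 to 39.8%) of the Pemt-/- members and 37.9% (36.1 to 39.7%) of the Pemt+/+ members, against 39.7% and 39.9% elsewhere. Without the first 0.25 Mb the shares in the ends were 40.4% and 40.3%, so the lower shares rested on that window. The members lay in or within 10 kb of 414 genes, 344 of them with a member in both mice, 9 in Pemt-/- alone and 61 in Pemt+/+ alone. No such split was computed over all autosomal genes, so these counts, like those of the gene lists below, have no gene background. Of all autosomal regions, 16.7% of Pemt-/- and 38.3% of Pemt+/+ were listed in that mouse only. A region near several genes was counted for each. Of the 414 genes, 340 listed in both mice had 20 tags or more when the mice were summed. Their median share of tags from Pemt-/- was 35.7% (quartiles 29.0 and 42.6%), beside 36.1% over 12354 such autosomal genes. Of the 340, 27 genes, 7.94%, had more tags in Pemt-/- than in Pemt+/+, beside 6.36% of the 12354. Prepared lists of 75 genes, 5 in number, were then followed gene by gene.

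Of 10 genes in the imprinted chromosome 6 neighbourhood, 9 had members in both mice, Tfpi2 had none, and the median share from Pemt-/- was 34.1%. Ppp1r9a, an actin-binding neuronal protein, carried 24 regions with 405 tags in Pemt-/- and 30 with 692 in Pemt+/+. Sgce carried 13 with 261 and 16 with 516. Peg10 carried 4 in each mouse, with 102 and 227 tags. The others stayed below them: Asb4, an ankyrin-repeat protein, had 101 and 137 tags, Casd1, a sialic acid acetyltransferase, 76 and 125, and Pon3, a lactonase, 65 and 89. In no gene of the list did Pemt-/- have more tags.

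Of 24 liver metabolism genes, 16 had members in both mice, Gstp2 in Pemt+/+ alone, and 7 none. Of these 7, Mthfd1l had regions beyond the 6 Mb limit, 21 in Pemt-/- and 26 in Pemt+/+. Over the list the median share from Pemt-/- was 40.2%, with 1059 tags against 1547. Oxct1, which activates ketone bodies, carried 15 regions with 221 tags in Pemt-/- and 14 with 314 in Pemt+/+. Esr1, the oestrogen receptor alpha, carried 12 with 156 and 11 with 169, and of these 6 and 5 were listed in 1 mouse only. Over all autosomal regions the shares listed in 1 mouse only were 16.7% and 38.3%. The Esr1 regions went down to 8 and 9 tags, the lowest listed values, and nothing is read from this 1 gene. In Oxct1, Esr1 and Ghr the Pemt-/- list thus had more regions and fewer tags. Cpt1a, the entry enzyme of mitochondrial fatty acid oxidation, carried 5 regions with 67 tags and 7 with 115.

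Of 17 genes for chromatin and transcription, 13 had members in both mice, Fosl1 in Pemt+/+ alone with 26 tags, and 3 none. Tfap4 was found under its older symbol Tcfap4. Here the median share was 35.8%. Arid1b, a subunit of the SWI/SNF remodelling complex, carried 29 regions with 433 tags in Pemt-/- and 36 with 778 in Pemt+/+. Zfhx4, a zinc finger homeobox factor, had 118 tags in Pemt-/- and 231 in Pemt+/+. Dnmt3a, a DNA methyltransferase that sets new methyl marks, had 122 and 158 tags, Zeb1, a transcriptional repressor, 85 and 145, and Patz1, a zinc finger factor, 31 and 101. Asxl2, a Polycomb-associated protein, had more regions in Pemt-/-, 6 with 68 tags against 4 with 92. Kdm2a, a histone lysine demethylase, named here for its direction, had 28 tags in Pemt-/- over 2 regions against 11 in Pemt+/+, and none of these regions overlapped between the mice.

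Of 18 signalling and tumour genes, 11 had members in both mice, Lif and Oprk1 in Pemt+/+ alone with 35 and 10 tags, and 5 none. The median share was 35.8%. Camk1d, a calmodulin-dependent kinase, carried 23 regions with 315 tags in Pemt-/- and 31 with 564 in Pemt+/+. Cdk6, a cell cycle kinase, carried 11 with 216 and 17 with 378. Lower shares were seen for Tiam2, a Rac exchange factor, with 111 and 285 tags, and for Rgs20, a regulator of G protein signalling, with 44 and 120. Adcy9, an adenylate cyclase, had 7 regions in each mouse, with 106 and 187 tags, and Ptger4, a prostaglandin E receptor, had 2 in each, with 43 and 77.

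Of 6 matrix and adhesion genes, 4 had members in both mice and 2 none. Of these 2, Itga8 had regions beyond the 6 Mb limit, 4 in Pemt-/- and 6 in Pemt+/+. Syne1, a nuclear envelope spectrin-repeat protein, carried 31 regions with 388 tags in Pemt-/- and 35 with 613 in Pemt+/+. Ltbp3, which binds latent TGF-beta, had 17 tags in Pemt-/- over 1 region and 79 in Pemt+/+ over 5. Col1a2, a chain of type I collagen, had 1 region of 9 tags in each mouse, at places that did not overlap, and Cd248, endosialin, had 12 tags in Pemt-/- and 11 in Pemt+/+.

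**Figure D4:**
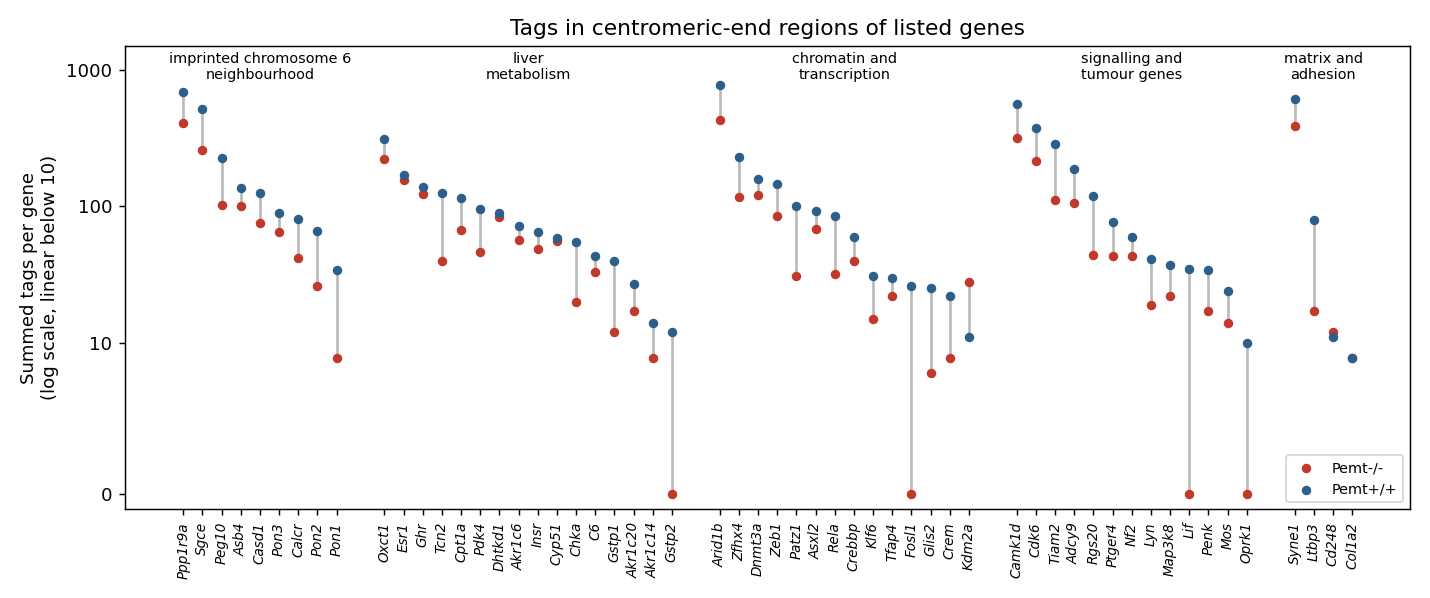
Tags summed over the centromeric-end regions of each listed gene (y axis, log scale, linear below 10) in the 2 libraries, grouped by list, for the reported genes with a member in either mouse. Pemt+/+ lies above Pemt-/- for all but Kdm2a, Cd248 and Col1a2, and 4 genes stand at 0 in Pemt-/-.

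Long genes carried the most members, so the counts were also set per gene length of GRCm38. Pftk1, a cyclin-dependent kinase, carried 26 regions inside the gene in Pemt-/- and 39 in Pemt+/+, or 4.51 and 6.76 per 100 kb, near the medians of 3.52 and 4.55 over the 81 genes of at least 50 kb. Ppp1r9a had 8.75 and 11.04 per 100 kb, and Atad2b, a bromodomain ATPase, 11.3 in both. Among the 232 genes with at least 60 tags in total, the lowest share from Pemt-/- was that of Actn3, the fast-fibre alpha-actinin, at 11.9% (6.18 to 21.8%), from 8 tags in Pemt-/- and 59 in Pemt+/+. The highest was that of 6030429G01Rik, at 63.6% (51.6 to 74.2%), from 42 tags in Pemt-/- and 24 in Pemt+/+. Both were selected from many genes by their share.

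A second, shorter list of each mouse, whose comparison is not given in the sources used here, contained 51 regions of the ends in Pemt-/- and 108 in Pemt+/+. These were 2.40% (1.83 to 3.14%) and 1.81% (1.502 to 2.18%) of its autosomal regions. Of the longer-list members 48, or 2.27%, reappeared in Pemt-/-, beside 2.12% of all autosomal regions. In Pemt+/+ 108 did, 3.81%, beside 4.57%. Of the shorter-list regions of the ends, 5.88% in Pemt-/- and 16.7% in Pemt+/+ overlapped the longer list of the other mouse. Elsewhere on the autosomes 7.77% and 18.7% did. For the longer-list members these shares were 83.0% and 61.6%. The authors' false discovery rate was 100% for every entry of Pemt-/- and between 22.8 and 36.4% in Pemt+/+, whereas all members of the longer lists had 0.

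The best-scoring shorter-list entry of Pemt-/- was inside Sfi1, at chr11:3078842-3079663 with 64 tags, followed by chr3:5561157-5561523 with 13 and the Ghr region with 18. That of Pemt+/+ was the Lyn region with 29 tags, followed by 2 regions of 17 tags on chromosomes 6 and 18. The Peg10 region of 75 tags had the most tags among those of Pemt+/+. In Pemt-/- chr3:5860182-5860951 had the most, 181, followed by regions inside Sfi1 with 67 and 64 tags and the Dhtkd1 region with 33. None of the chromosome 9 run was in either shorter list.

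The limit at 6 Mb cut no region. Between 5.9 and 6.0 Mb there were 68 members in Pemt-/- and 78 in Pemt+/+, with medians of 12 and 17 tags. The 0.1 Mb beyond it held 76 and 105 regions, with 14.5 and 17.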

How the data were processed

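Liver DNA of 1 library per genotype was enriched with a methyl-CpG capture kit and sequenced on a Genome Analyzer. The submitters' processing notes name CASAVA 1.8.2, Bowtie and the build mm9. Region names are those of a MACS-type caller, whose version, control and settings, and the handling of reads matching several places, are not given in the sources used here. The deposited columns held tags per region as whole-number counts, a score (10 times the −log10 of the p-value), a fold enrichment (ratio) and a false discovery rate in percent, all made by the authors. The lowest listed score was 50. Library totals were not in the lists.

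Listed genes were matched by symbol or gene ID. Entries were reduced to 1 per region name. Regions were matched by an overlap of at least 1 bp and paired where they overlapped 1 to 1. Shares carry Wilson 95% intervals, which cover counting error only, since tags are not independent molecules. No test between the mice was possible. The overlap code was tested on simulated regions. Genes were named by 5 lists (the 6 genes with the most tags, and those with regions in 1 mouse). Regions were named by tags, score in 1 mouse only, and 5′ ends; the chromosome 14 and 12 regions, the extremes of ratio or share, Kdm2a and Lyn and Ghr totals were chosen after their values were seen. The values of 1 listed gene are not reported here. Members and lists were chosen with earlier results of these data known. Python 3.11.15, pandas 2.3.3 and scipy 1.17.1 were used.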

Additional observations from a re-analysis of the deposited data

How the results depend on the processing

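No paired analysis was possible because there was only 1 library of each genotype, so none could be left out either. Of 96 values recomputed under other settings, 74 stayed within the 95% interval of the share, or within 1.5 times the density or median, and 22 did not. The setting with lists of equal size left the Pemt-/- list unchanged, since it had fewer regions. Pemt-/- values that did not use the Pemt+/+ list could therefore not move under that setting, and they count among the 74. With the upper 50% of each list by score, the density was 19.2 regions per Mb in Pemt-/- and 25.7 in Pemt+/+, as fewer regions remain, the shares listed in the other mouse 78.7% and 58.7%, and the shares in a transcript 34.5% and 34.8%. Lists of equal size gave 72.0% and 71.1% listed in the other mouse, and an overlap of 50% of both regions gave 78.4% and 58.3%. The shares in a transcript were 34.2% and 35.2% with a limit of 5 Mb, and 40.4% and 40.3% without the first 0.25 Mb. With shorter-list scores of at least 100 the shares in those lists were 0 and 0.106%. The share of paired tags from Pemt-/- was 40.9% in the upper 50%, 39.8% with equal sizes, 41.0% with the 50% overlap, 39.9% without chromosome 9, 39.9% without the first 0.25 Mb and 40.0% without chromosomes 9 and 11. The settings without the first 0.25 Mb and without both chromosomes were chosen after seeing the data. Apart from the lower density of the smaller lists, the cause of these moves was not tested. With 8 tags as the lowest listed value in Pemt-/- and 9 in Pemt+/+, a region missing from a list may hold tags below the caller's threshold.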
